A study of Homo sapiens with 6 samples.

Results

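The TCF/LEF factors and their nuclear cofactors were followed in PC9, a human lung adenocarcinoma line driven by mutant EGFR, through all rows of the deposited gene and transcript tables that carry 1 of 10 gene names. The 10 genes were TCF7L1, TCF7L2, LEF1 and TCF7 (DNA-binding factors), BCL9, BCL9L and PYGO2 (coactivators), TLE1 and TLE3 (corepressors) and CTNNBIP1 (an inhibitor of β-catenin). All 10 names were found, among 58825 genes, and they own 126 of the 208460 transcripts. The tested cells overexpressed FOXM1, a forkhead transcription factor of the cell division programme, as the G allele of rs3742076 (3 libraries, called G here), and the cells they were set against overexpressed FOXM1 as the A allele (3 libraries, called A). Both groups carried the FOXM1 overexpression and both were kept in the EGFR inhibitor gefitinib at 100 nM for 24 h, so neither can stand for unmodified or untreated PC9 cells. The labels give no vector, no promoter and no statement on whether a line was a clone or a pool. Poly(A) RNA was sequenced as pairs of 150-base reads.

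TCF/LEF proteins are the DNA-binding arm of canonical Wnt signalling. Without a Wnt signal they sit on their target genes with Groucho/TLE corepressors. When β-catenin, the product of CTNNB1, accumulates and enters the nucleus, it binds the amino end of the TCF/LEF protein, and BCL9 or BCL9L then joins β-catenin to a Pygopus protein such as PYGO2 to activate transcription. CTNNBIP1, also called ICAT, binds β-catenin and keeps it from TCF/LEF factors. TCF7L1 is known mostly as a repressor, LEF1 mostly as an activator, and TCF7L2 and TCF7 act in both ways. TCF7 and LEF1 are best known from T cells, and TCF7L2 from the intestinal epithelium.

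The 4 DNA-binding factors are paralogs that share the HMG box, the domain that contacts DNA. A stretch at the start of this box is shown to compare them. Of the in-frame windows of 60 coding bases within 1 exon of TCF7L1, it had the most bases in common with the best ungapped matches in the other 3 factors. Each line gives 60 bases of the sense strand, 5′ to 3′, from GENCODE release 29 on GRCh38, and capitals mark the bases that differ from TCF7L1.
TCF7L1 (chr2:85306255-85306314, plus strand, codons 347 to 366): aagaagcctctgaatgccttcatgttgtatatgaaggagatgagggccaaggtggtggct
TCF7L2 (chr10:113151774-113151833, plus strand, codons 351 to 370): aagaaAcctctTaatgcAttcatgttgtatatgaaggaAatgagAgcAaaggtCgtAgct
LEF1 (chr4:108078271-108078330, minus strand, codons 300 to 319): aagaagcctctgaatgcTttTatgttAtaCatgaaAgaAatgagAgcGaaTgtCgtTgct
TCF7 (chr5:134142773-134142832, plus strand, codons 270 to 289): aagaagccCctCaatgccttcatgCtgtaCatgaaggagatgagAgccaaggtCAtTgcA
Against TCF7L1 the TCF7L2 stretch differed at 8 bases (86.7% identical), that of TCF7 at 9 (85.0%) and that of LEF1 at 11 (81.7%). Over all 45 pairs of the 10 genes the longest exact run shared by any annotated transcripts was 30 bases, between TLE1 and TLE3, followed by 29 bases between LEF1 and TCF7L1 and 26 bases between TCF7L1 and TCF7L2. These runs are far shorter than a 150-base read.

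Between 12451 and 12858 genes per library reached 1 FPKM, the deposited unit (fragments per kilobase of transcript, scaled to the mapped fragments), and no 2 columns were identical. Summed FPKM was 253706 to 255269 in G libraries and 270219 to 277596 in A libraries, and the share of mitochondrially encoded genes was 17.7% to 19.7% in G libraries and 22.1% to 22.2% in A libraries. Both totals therefore separated the groups, and changes are also given below after rescaling. FOXM1 mRNA was at 14.6, 14.3 and 13.96 FPKM in G libraries, against 25.5, 10.5 and 10.1 FPKM in A libraries, so A replicate 1 stood apart from the rest. The limma log2 change of FOXM1, G minus A, was 0.03 (95% interval -0.77 to 0.83). By mean FPKM the sign was the opposite, with 14.31 in G and 15.35 in A, and the authors' deposited log2 fold change was -0.10. A two-sided exact permutation test over the 6 libraries returned p = 1, and 0.1 is the smallest p that groups of 3 allow. Left-out libraries moved the log2 change of FOXM1 to 0.44 without A replicate 1 (limma adjusted p = 0.0871), -0.16 without A replicate 2 and -0.19 without A replicate 3. Of 8 epithelial markers, 7 (all but CLDN4) were at 1 FPKM or more in all 6 libraries, with a summed level of 2787 to 2975 FPKM in G libraries and 2905 to 3552 FPKM in A libraries. Of 8 leukocyte markers 7 stayed below 1 FPKM in all libraries, CD68 being the exception, and CD2 and MS4A1 had no estimate in any; the sum of the list was 36.8 to 48.9 FPKM in G libraries and 36.3 to 44.9 FPKM in A libraries. Of 6 fibroblast markers 5 stayed below 1 FPKM (the exception was COL1A1), as did all 4 endothelial markers.

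The 10 genes covered more than 2 orders of magnitude in level, and the order was nearly the same in every library. BCL9L, the β-catenin adaptor, and TLE1, a Groucho corepressor, were the most abundant, at means of 21.9 and 20.4 FPKM over the 6 libraries. PYGO2 followed at 12.2 FPKM, then CTNNBIP1 at 9.39, TCF7L1 at 8.61, BCL9 at 7.66 and TLE3 at 3.56 FPKM. TCF7L2 stood at 1.03 FPKM, LEF1 at 0.519 FPKM and TCF7 at 0.0501 FPKM. These gene values are per length of all annotated exons of the gene merged: the length-weighted sum of the transcript FPKM divided by the gene FPKM was a constant for each gene, equal to 98.6% to 104.9% of the merged exon length in GENCODE release 29. A gene with many exons that its main transcript does not use therefore gets a low gene FPKM. TLE3 has 12634 merged bases and a leading transcript of 2356 bases, and its summed transcript FPKM was 3.89 times its gene FPKM, against 1.17 times for BCL9. The order of the genes depends on which of the 2 scales is used, so both are given.

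On the gene scale some neighbours in this order were separate in every library and others were not. The 6 values of TLE1 all lay above those of PYGO2 (ratio of means 1.67), those of PYGO2 above those of CTNNBIP1 (1.305), those of BCL9 above those of TLE3 (2.15), those of TLE3 above those of TCF7L2 (3.47) and those of LEF1 above those of TCF7 (10.4). The values of BCL9L and TLE1 overlapped, and BCL9L was the higher in 4 of 6 libraries. CTNNBIP1 overlapped TCF7L1, and TCF7L1 overlapped BCL9, each with the order kept in 5 of 6 libraries. TCF7L2 also overlapped LEF1, although TCF7L2 was the higher within each of the 6 libraries. Summed over transcripts the order was TLE1 (40.5 FPKM), BCL9L (27.9), PYGO2 (14.2), TLE3 (13.8), TCF7L1 (13.0), CTNNBIP1 (12.1), BCL9 (8.98), TCF7L2 (2.56), LEF1 (1.61) and TCF7 (0.176 FPKM). On that scale TLE3 lay above BCL9 in all 6 libraries, the reverse of the gene scale, and TLE1 lay wholly above BCL9L, BCL9L wholly above PYGO2, BCL9 wholly above TCF7L2 and LEF1 wholly above TCF7. The 5 genes from PYGO2 to BCL9 overlapped their neighbours. TCF7L2, LEF1 and TCF7 were the lowest 3 on both scales. Between libraries TLE3 varied least at gene level, with a highest value 1.10 times the lowest, and TCF7L2 and TCF7 most, at 3.31 and 4.80 times.

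**Figure D1:**
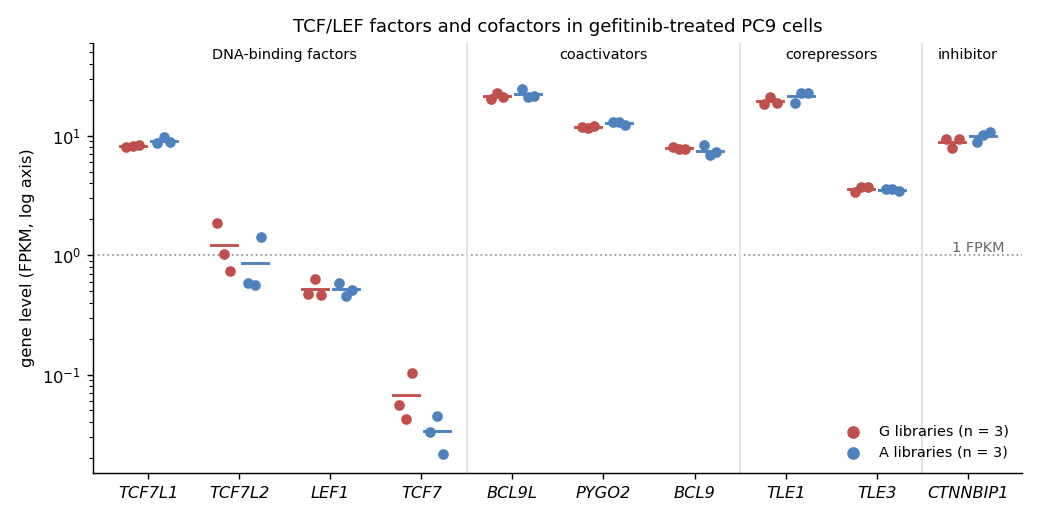
Gene FPKM, per merged exon length, of each of the 10 genes (log axis) in the G libraries (red, left of each pair) and the A libraries (blue, right), 1 point per library, with a bar at the mean of 3 libraries; the dotted line marks 1 FPKM. Values of G and A lie on top of each other for most genes, TCF7L2 is spread on both sides of 1 FPKM, and LEF1 and TCF7 lie below it in all 6 libraries.

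None of the 10 genes was called between the alleles. Of the 10 genes 8 passed the filter on low values, which asks for 1 FPKM in 3 libraries or more; LEF1 and TCF7 did not. Of these 8, limma-trend called 0 at an adjusted p under 0.05, against 0.109% of all 12787 genes tested, and 0 had an unadjusted p under 0.05, against 17.3% of all. In 3 of the 8 the log2 change was above 0 and in 5 it was below 0, against 44.9% of all tested genes below 0. Their median log2 change was -0.09, where the median of all tested genes was 0.02. On the deposited scale the G values lay wholly below the A values in 2 of the 8, against 9.57% of all tested genes. The G values lay wholly above in 0, against 15.4%. The 2 were TCF7L1 and PYGO2, whose log2 changes with the libraries set to equal sums were -0.04 and -0.01. Such separation was counted on the deposited scale alone. In the authors' deposited table all 10 genes have a q-value of 1 and none is marked significant, against 0.367% of all genes; the smallest p-value there is 0.268, for TLE1. In bulk RNA of this kind, fewer cells that express a gene and less RNA per cell cannot be told apart.

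**Figure D2:**
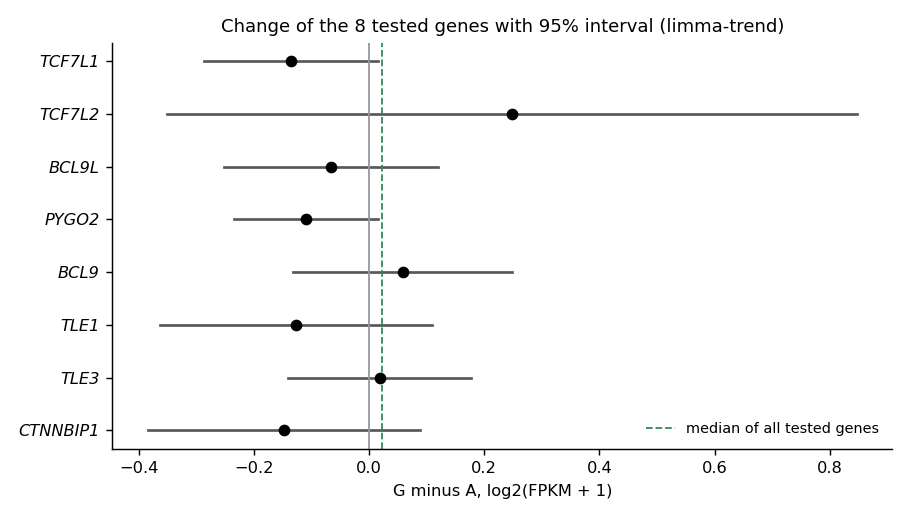
Log2 change of the 8 tested genes, G minus A on the log2(FPKM + 1) scale, with the 95% interval of the limma-trend fit (3 libraries per group); the dashed line is the median of all tested genes, 0.02. All 8 intervals include 0, those of TCF7L1 and PYGO2 reach just past it (upper ends 0.02 each), and that of TCF7L2 is the widest, from -0.35 to 0.85.

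Among the DNA-binding factors TCF7L1 was the most abundant on both scales, and its deposited level was a little lower in G libraries. TCF7L1 (ENSG00000152284, chr2:85133392-85310387, plus strand) was at 8.01, 8.13 and 8.32 FPKM in G libraries, against 8.63, 9.68 and 8.87 FPKM in A libraries. As deposited, the 3 G values were all below the 3 A values. Means were 8.15 ± 0.153 FPKM in G and 9.06 ± 0.551 FPKM in A (SD, n = 3 each). The log2 change was -0.14 ± 0.063 (SE), with a 95% interval of -0.29 to 0.02 and a limma adjusted p of 0.327. As a fold on the FPKM + 1 scale that interval runs from 0.82 to 1.01 and includes 1, which is no change.

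TCF7L2 (ENSG00000148737, chr10:112950247-113167678, plus strand), the family member used by the intestinal epithelium, was the most variable of the tested genes. It was at 1.86, 1.02 and 0.730 FPKM in G libraries, against 0.589, 0.562 and 1.41 FPKM in A libraries. G replicate 1 and A replicate 3 were the 2 highest, so the groups overlapped, and the gene passed the filter through G replicates 1 and 2 and A replicate 3. Means were 1.20 ± 0.589 FPKM in G and 0.852 ± 0.480 FPKM in A (SD, n = 3 each), and the log2 change was 0.25 ± 0.25 (SE; limma adjusted p = 0.63). Without G replicate 1 the log2 change was 0.04, and without A replicate 3 it was 0.45. On the FPKM + 1 scale the interval of 0.784- to 1.80-fold includes 1 and is the widest of the 8. That scale understates changes at levels this low. With pseudocounts of 0.1 and 0.01 the log2 change was 0.47 and 0.52 (limma adjusted p = 0.618 and 0.615). The authors' deposited log2 fold change was 0.50.

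LEF1 (ENSG00000138795, chr4:108047545-108168956, minus strand) was at 0.475, 0.635 and 0.460 FPKM in G libraries, against 0.579, 0.455 and 0.512 FPKM in A libraries. TCF7 (ENSG00000081059, chr5:134114681-134151865, plus strand) was at 0.0554, 0.0420 and 0.103 FPKM in G libraries, against 0.0333, 0.0453 and 0.0215 FPKM in A libraries. Both T cell factors thus stayed low in all libraries, with overlapping groups. When no filter was used, the log2 change was 0.01 for LEF1 (limma adjusted p = 0.98) and 0.05 for TCF7 (adjusted p = 0.65). On the log2(FPKM + 1) scale, levels as low as those of TCF7 keep the change near 0. The TCF7 means were 0.0668 ± 0.0320 FPKM in G and 0.0334 ± 0.0120 FPKM in A (SD, n = 3 each). The authors' deposited log2 fold change of TCF7 was 1.00, not marked significant. TCF7 overlaps SKP1 on the opposite strand, and SKP1 was at 13.6 to 16.2 FPKM in G libraries and 16.2 to 21.2 FPKM in A libraries; whether any of its reads were counted for TCF7 was not tested.

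Added together at gene level, the 4 factors gave 10.4, 9.82 and 9.61 FPKM in G libraries, against 9.84, 10.8 and 10.8 FPKM in A libraries. TCF7L1 made up 77.0%, 82.7% and 86.6% of that sum in G libraries, against 87.8%, 90.1% and 82.0% in A libraries. It was the largest part in all 6, and the groups overlapped. TCF7L2 made up 7.59% to 17.9% in G libraries and 5.23% to 13.0% in A libraries, and LEF1 4.56% to 6.47% in G libraries and 4.24% to 5.88% in A libraries. The share of TCF7 was 0.428% to 1.07% in G libraries and 0.198% to 0.422% in A libraries. From summed transcript FPKM the share of TCF7L1 was 67.0% to 76.6% in G libraries and 74.7% to 84.6% in A libraries, again the largest in all 6, and the TCF7 shares overlapped.

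**Figure D3:**
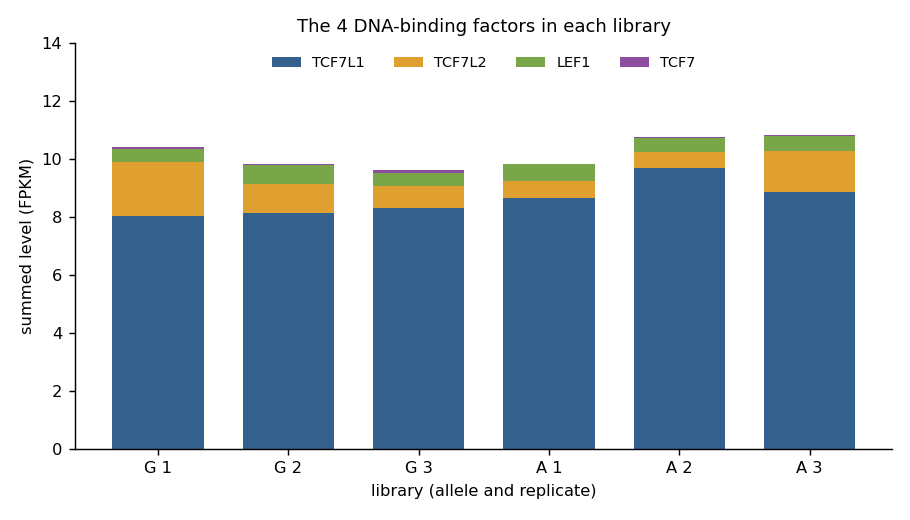
Summed gene FPKM of the 4 DNA-binding factors in each library, G replicates 1 to 3 on the left and A replicates 1 to 3 on the right, stacked by gene. TCF7L1 fills 77.0% to 90.1% of each bar, the TCF7L2 part is tallest in G replicate 1 and A replicate 3, and TCF7 is barely visible.

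All 3 coactivators were above 6 FPKM in each library. BCL9L (ENSG00000186174, chr11:118893875-118925608, minus strand) was at 20.4, 22.6 and 21.1 FPKM in G libraries, against 24.7, 21.2 and 21.5 FPKM in A libraries. Its paralog BCL9 (ENSG00000116128, chr1:147541501-147626216, plus strand) was at 8.08, 7.72 and 7.66 FPKM in G libraries, against 8.33, 6.88 and 7.26 FPKM in A libraries. A replicate 1 was the highest library for both genes, and the groups overlapped for both. The log2 change was -0.07 ± 0.077 (SE) for BCL9L, with an interval of -0.25 to 0.12, and 0.06 ± 0.079 (SE) for BCL9, with an interval of -0.13 to 0.25. The limma adjusted p was 0.679 for BCL9L and 0.724 for BCL9. Without A replicate 1 the change of BCL9L was 0.00. On the opposite strand BCL9L overlaps UPK2, a urothelial membrane gene at 19.6, 22.6 and 20.7 FPKM in G libraries, against 19.8, 23.6 and 25.6 FPKM in A libraries, and whether reads were shared between them was not tested.

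The ratio of the 2 adaptors was compared on both scales. By gene FPKM, BCL9L stood at 2.52, 2.93 and 2.76 times BCL9 in G libraries, against 2.96, 3.07 and 2.97 times in A libraries. The 3 G ratios were all below the 3 A ratios, with G replicate 2 at 2.93 and A replicate 1 at 2.96 next to each other. No test was run on this ratio. The levels of 24.9% of all tested genes did not overlap between the groups, in either direction. That share is for levels of single genes, and none was worked out for ratios of 2 genes. From summed transcript FPKM the ratio was 2.55, 3.57 and 2.74 in G libraries, against 3.26, 3.50 and 3.26 in A libraries, and the groups overlapped.

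PYGO2 (ENSG00000163348, chr1:154957026-154963853, minus strand), which reads methylated histone H3 through its PHD finger, was at 11.7, 11.5 and 12.0 FPKM in G libraries, against 13.0, 12.9 and 12.4 FPKM in A libraries. As deposited, all G values were below all A values. Means were 11.7 ± 0.25 FPKM in G and 12.7 ± 0.321 FPKM in A (SD, n = 3 each). The log2 change was -0.11 ± 0.052 (SE; interval -0.23 to 0.02; limma adjusted p = 0.337). PYGO2 overlaps SHC1 by 1556 bases on the same strand, and SHC1 was at 57.7, 44.9 and 44.7 FPKM in G libraries, against 44.1, 51.4 and 43.6 FPKM in A libraries. The groups of SHC1 overlapped (log2 change 0.07, limma adjusted p = 0.773), and the part of shared reads in the PYGO2 values was not tested. PYGO1, the other Pygopus gene, was at 0.325 ± 0.0442 FPKM in G and 0.258 ± 0.0322 FPKM in A (SD, n = 3 each) and was below the filter.

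The corepressors were led by TLE1. Groucho/TLE proteins bind TCF/LEF factors through an amino-terminal Q domain that also forms tetramers, and carry WD repeats at the carboxyl end. TLE1 (ENSG00000196781, chr9:81583683-81689547, minus strand) was at 18.3, 21.1 and 18.9 FPKM in G libraries, against 18.6, 22.8 and 22.7 FPKM in A libraries. The groups overlapped through A replicate 1, and the log2 change was -0.13 ± 0.098 (SE; interval -0.36 to 0.11; limma adjusted p = 0.533). Without A replicate 1 it was -0.22, with an adjusted p of 0.206, the lowest adjusted p that any of the 8 genes had under any setting tried.

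TLE3 (ENSG00000140332, chr15:70047790-70098176, minus strand) was at 3.37, 3.72 and 3.70 FPKM in G libraries, against 3.55, 3.58 and 3.47 FPKM in A libraries. The groups overlapped, and the log2 change was 0.02 ± 0.066 (SE, interval -0.14 to 0.18, limma adjusted p = 0.904). On the FPKM + 1 scale the ends of the interval are 0.907- and 1.13-fold. By gene FPKM, TLE1 was 5.12 to 5.69 times TLE3 in G libraries and 5.25 to 6.54 times in A libraries. From summed transcript FPKM it was 2.74 to 2.80 times in G libraries and 2.64 to 3.53 times in A libraries, so the size of this ratio rests on the scale. On neither scale did the groups separate. Of the other Groucho genes, TLE2 was at 13.8 ± 1.01 FPKM in G and 14.1 ± 0.491 FPKM in A (SD, n = 3 each), and TLE4 was below 1 FPKM in all 6 libraries.

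CTNNBIP1 (ENSG00000178585, chr1:9848276-9910336, minus strand) was at 9.44, 7.83 and 9.31 FPKM in G libraries, against 8.89, 10.1 and 10.7 FPKM in A libraries. G replicate 2 was the lowest and A replicate 3 the highest, and the groups overlapped. The log2 change was -0.15 ± 0.098 (SE; interval -0.38 to 0.09; limma adjusted p = 0.474), the most negative of the 8. Its target β-catenin is encoded by CTNNB1, which was at 16.5, 16.7 and 16.2 FPKM in G libraries, against 16.1, 14.9 and 16.0 FPKM in A libraries (log2 change 0.07, limma adjusted p = 0.543). The gene FPKM of CTNNB1 was 1.75, 2.13 and 1.74 times that of CTNNBIP1 in G libraries, against 1.81, 1.47 and 1.49 times in A libraries. A replicate 1 lay among the G libraries in this ratio.

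By position, BCL9, PYGO2 and CTNNBIP1 lie on chromosome 1, and each of the other 7 genes lies on a chromosome of its own. The log2 changes of the 3 genes on chromosome 1 were 0.06, -0.11 and -0.15, with intervals that overlap and include 0.

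The other genes of the nuclear complex were read from a list of 40 further partners, of which 36 were tested. By limma-trend 0 were called in either direction, against 0.109% of all tested genes, and 6 were higher and 1 lower at an unadjusted p under 0.05, against 17.3% of all in either direction. Log2 changes were above 0 in 27 and below 0 in 9, against 44.9% of all below 0, and the median was 0.10, against 0.02 for all. The G values lay wholly above the A values in 11 of the 36, against 15.4% of all tested genes, and wholly below in 2, against 9.57%. Among the partners with the smallest p was KMT2A. This histone H3 lysine methyltransferase, also called MLL, was at 3.12, 3.45 and 3.60 FPKM in G libraries, against 2.83, 2.28 and 2.44 FPKM in A libraries (log2 change 0.32, limma adjusted p = 0.196). The only partner lower at an unadjusted p under 0.05 was TLE5, the short Groucho relative without WD repeats, which was picked out after its values were seen. It was at 42.8, 43.1 and 40.8 FPKM in G libraries, against 46.7, 46.9 and 46.9 FPKM in A libraries (log2 change -0.15, limma adjusted p = 0.208).

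Of 25 genes widely used as direct TCF/LEF targets, 9 were tested, since the other 16, among them AXIN2, NKD1, LGR5, SP5 and NOTUM, did not reach the filter. By limma-trend 0 of the 9 were called, against 0.109% of all tested genes, and 1 had an unadjusted p under 0.05, against 17.3% of all. Log2 changes were above 0 in 6 and below 0 in 3, against 44.9% of all below 0, with a median of 0.03, against 0.02 for all. The gene with an unadjusted p under 0.05 was CCND1, which encodes cyclin D1, at 7.95, 7.40 and 7.59 FPKM in G libraries, against 9.63, 9.98 and 9.59 FPKM in A libraries. All its G values were below all its A values (log2 change -0.31, limma adjusted p = 0.148). The next smallest p was that of RNF43, a membrane ubiquitin ligase that removes Wnt receptors, at 1.32, 1.15 and 1.08 FPKM in G libraries, against 0.758, 1.14 and 0.785 FPKM in A libraries (log2 change 0.21, limma adjusted p = 0.385). TCF7 and LEF1 are themselves in the target list, and SOX9 is in both lists.

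The direction of the small changes depended partly on the scale. With the libraries set to equal sums of FPKM, the median of all tested genes became 0.11 and that of the 8 genes 0.01, so the 8 stayed 0.10 below all genes, against 0.11 below on the deposited scale. TCF7L1, PYGO2, TLE1 and CTNNBIP1 were negative in all 18 settings, but with equal sums they were at -0.04, -0.01, -0.02 and -0.05. BCL9L was at 0.04 with equal sums, and TLE3 at -0.03 after quantile normalization. BCL9 was positive in all 18 settings, and TCF7L2 in the 17 in which it was tested.

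**Figure D4:**
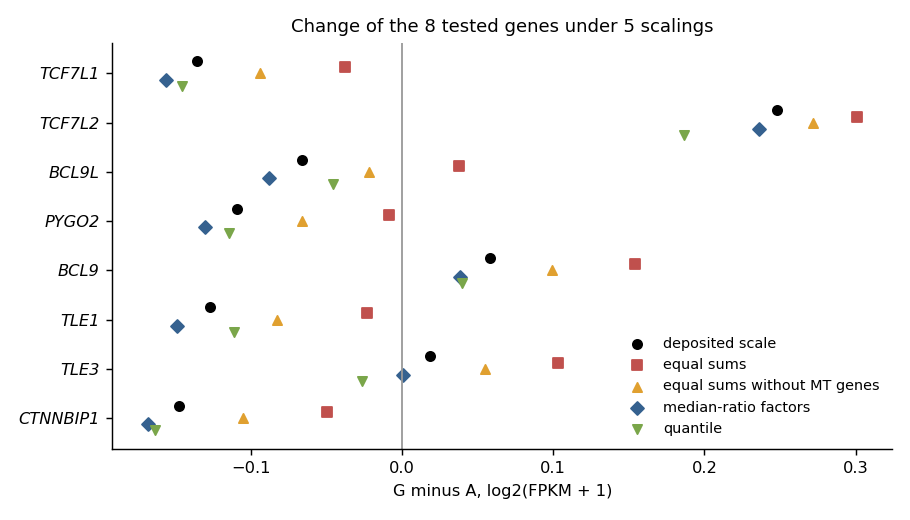
Log2 change, G minus A, of the 8 tested genes on the deposited scale and under 4 other scalings, 1 symbol per scaling. The equal-sums symbols (red squares) lie to the right of all others for each gene, and BCL9L and TLE3 have symbols on both sides of 0.

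The transcript table shows which isoforms stood behind these levels. Of the 126 transcripts of the 10 genes 79 had an estimate above 0.0001 FPKM in some library and 14, from 7 genes, passed the filter. Of these 14, limma-trend called 0, against 0.147% of all 29990 transcripts tested, and 0 had an unadjusted p under 0.05, against 7.81%. The log2 change was below 0 in 10 and above 0 in 4, with a median of -0.12, where that of all tested transcripts was 0.03. On the deposited scale the main transcripts of TCF7L1 and PYGO2 had all G values below all A values, against 6.40% of all tested transcripts. A TLE3 transcript also did, but it passed the filter through the A libraries alone, which fixes its direction. Transcript FPKM are estimates that divide the reads of a gene among overlapping transcripts, and the part of that division in the values below was not tested.

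TCF7L1, PYGO2, BCL9L and BCL9 each kept 1 leading transcript in all 6 libraries. For TCF7L1 it was ENST00000282111, of 588 codons, with 96.4% to 99.0% of the transcript FPKM in G libraries and 96.3% to 99.1% in A libraries. It was at 11.9, 12.0 and 12.3 FPKM in G libraries, against 12.8, 14.2 and 13.1 FPKM in A libraries (log2 change -0.14, limma adjusted p = 0.76). For PYGO2 it was ENST00000368457, of 406 codons, at 13.5, 13.3 and 13.8 FPKM in G libraries, against 14.9, 14.5 and 14.3 FPKM in A libraries (log2 change -0.10, limma adjusted p = 0.798). For BCL9L, ENST00000334801 held 74.2% to 78.3% in G libraries and 75.8% to 83.7% in A libraries, and for BCL9, ENST00000234739 held 77.5% to 92.7% in G libraries and 84.4% to 96.1% in A libraries.

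TCF7L2 had no steady isoform. Its leading transcript was ENST00000627217 in G replicates 1 and 3 and A replicate 2, ENST00000629706 in G replicate 2 and A replicate 1, and ENST00000543371 in A replicate 3. ENST00000627217 was at 2.38, 0.171 and 0.733 FPKM in G libraries, against 0.00477, 0.549 and 0.631 FPKM in A libraries. ENST00000629706 was at 2.24 FPKM in G replicate 2, against 1.15 FPKM in A replicate 1 and 0.639 FPKM in A replicate 3, and was at or under 0.0001 FPKM in the other 3 libraries. The leading 2 forms differ by an early exon of 69 bases, present in ENST00000627217, and by a stretch of 15 bases ahead of the HMG box, present in ENST00000629706. Both are whole numbers of codons and are shown in capitals, with 15 neighbouring coding bases on each side in lower case, as read from GENCODE release 29 on GRCh38.
TCF7L2 exon of 69 bases (chr10:112964556-112964624, plus strand): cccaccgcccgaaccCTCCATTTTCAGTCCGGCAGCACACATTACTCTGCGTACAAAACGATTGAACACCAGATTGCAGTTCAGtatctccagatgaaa
TCF7L2 stretch of 15 bases (chr10:113150983-113150997, plus strand): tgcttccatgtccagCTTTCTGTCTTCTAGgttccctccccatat
Transcripts with the 69-base exon held 64.4%, 7.91% and 68.1% of the FPKM of all transcripts that could be scored for it in G libraries, against 24.7%, 93.9% and 70.2% in A libraries. Transcripts with the 15-base stretch held 0.00812%, 75.7% and 0.0138% in G libraries, against 76.8%, 27.7% and 69.9% in A libraries. In G replicates 1 and 3 these transcripts summed to 0.0003 and 0.000149 FPKM. Each was at or under 0.0001 FPKM there, the value that stands for no estimate, so these 2 shares are not measured levels. Both shares differed widely between libraries of the same group, and the groups overlapped for both. Transcripts that code from the full-length start, and so from the end of the protein that binds β-catenin, held 42.1% to 89.0% of TCF7L2 in G libraries and 59.9% to 78.8% in A libraries.

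The low factors were as uneven. Transcripts of LEF1 that code from the full-length start held 65.5%, 6.37% and 44.2% in G libraries, against 51.2%, 50.1% and 67.1% in A libraries, and noncoding transcripts held most of the rest. The leading TCF7 transcript over all libraries, ENST00000395029, was at 0.0974, 0.122 and 0.293 FPKM in G libraries, against 0.0001, 0.0615 and 0.0001 FPKM in A libraries. Its 3 G values were all above its 3 A values, but 2 of the A values are the value that stands for no estimate. The exact two-sided permutation test of its share gave p = 0.1, the smallest that 3 against 3 libraries allow, and 0.6 after Benjamini-Hochberg adjustment over the leading transcripts of the 10 genes, of which none had a lower adjusted p.

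TLE3 and CTNNBIP1 each had 1 library that differed from the other 5. In TLE3 the leading transcript was ENST00000451782, of 769 codons, at 0.543, 6.63 and 4.89 FPKM in G libraries, against 5.65, 5.46 and 2.94 FPKM in A libraries. In G replicate 1 the leading transcript was ENST00000557907, with 33.7% of the transcript FPKM. The 2 differ at a stretch of 15 bases, shown in capitals with its coding neighbours from GENCODE release 29.
TLE3 stretch of 15 bases (chr15:70057459-70057473, minus strand, GRCh38): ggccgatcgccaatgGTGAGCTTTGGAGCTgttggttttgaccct
Transcripts with this stretch held 32.5%, 72.4% and 78.3% in G libraries, against 75.7%, 78.6% and 66.3% in A libraries. The gene level of TLE3 in G replicate 1 was 3.37 FPKM, the lowest of the 6 but within 1.10-fold of the highest. In CTNNBIP1 the leading transcript ENST00000377263 was at 10.2, 8.34 and 7.97 FPKM in G libraries, against 9.72, 11.2 and 11.2 FPKM in A libraries (log2 change -0.26, limma adjusted p = 0.704). In G replicate 3, ENST00000377258 stood at 8.26 FPKM, or 50.6% of the gene, where the other 5 libraries had at most 2.01 FPKM of it. All 4 annotated CTNNBIP1 transcripts hold the same 81 codons.

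The transcript with the smallest p was ENST00000558201 of TLE3, of 778 codons. It was at 0.619, 0.789 and 0.357 FPKM in G libraries, against 1.01, 1.95 and 1.11 FPKM in A libraries, so all G values were below all A values. It passed the filter through the A libraries alone and so had to be the lower in G. The log2 change was -0.56 with an interval of -1.12 to 0.00 (unadjusted p = 0.0512, limma adjusted p = 0.639).

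TLE1 held 2 abundant forms in all 6 libraries. The full-length ENST00000376499, of 770 codons, was at 17.5, 20.9 and 18.8 FPKM in G libraries, against 18.6, 23.0 and 22.6 FPKM in A libraries (log2 change -0.15, limma adjusted p = 0.787). The short ENST00000376463, of 144 codons, was at 15.8, 17.4 and 14.8 FPKM in G libraries, against 13.3, 16.6 and 16.9 FPKM in A libraries (log2 change 0.04, limma adjusted p = 0.952). Its annotated start lies in frame at codon 57 of the full-length form, and it ends 23 coding bases past a splice site that the full-length form uses, before the part that encodes the WD repeats. That end is shown because it is where the 2 forms part; lower case marks the shared bases and capitals those found in the short form alone, from GENCODE release 29.
TLE1 end of the short form (chr9:81634074-81634096 for the capitals, minus strand, GRCh38): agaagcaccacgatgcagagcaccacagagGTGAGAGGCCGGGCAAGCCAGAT
The short form made up 41.4%, 41.8% and 39.5% of the TLE1 transcript FPKM in G libraries, against 35.9%, 37.5% and 37.8% in A libraries. All 3 G shares lay above all 3 A shares, at 40.9% ± 1.23 in G and 37.0% ± 1.04 in A (SD, n = 3 each), and no test was planned for this share. The short form is not among the transcripts that the naming rule below selects. How often such shares separate over all genes was not worked out. Transcripts of TLE3 that code from the full-length start held 82.6% to 84.7% in G libraries and 76.0% to 79.4% in A libraries, without overlap. Both shares were picked from many after the values were seen, and no test was run on either. They are therefore given as values only.

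**Figure D5:**
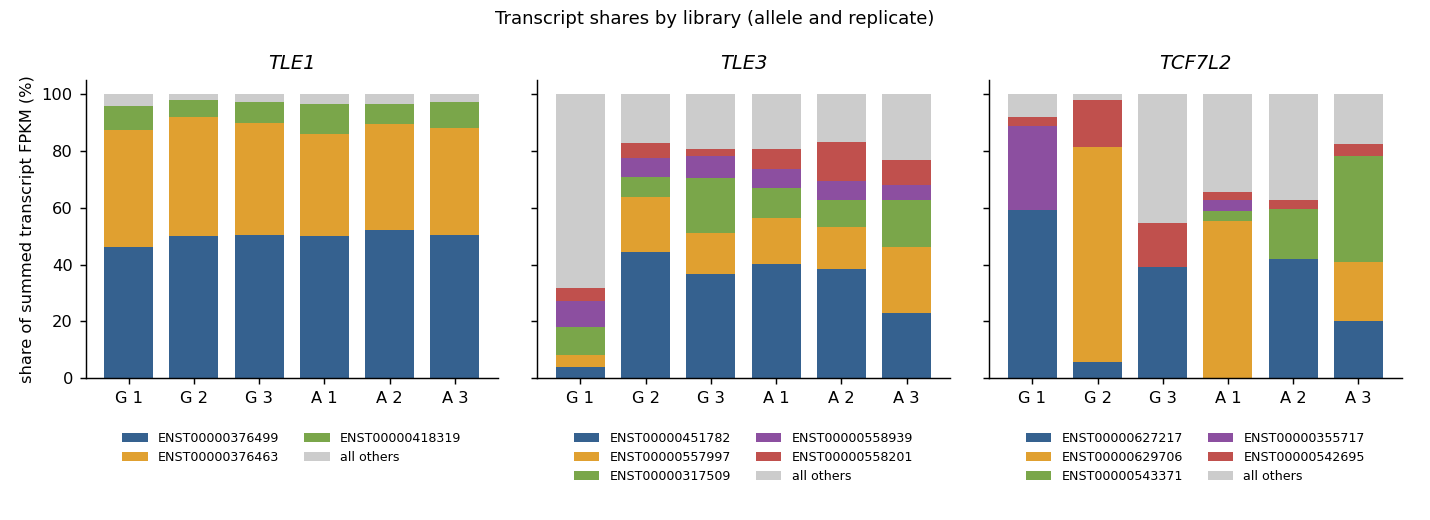
Share of each transcript in the summed transcript FPKM of TLE1, TLE3 and TCF7L2, in percent, in G replicates 1 to 3 (left bars) and A replicates 1 to 3 (right bars); gray is the sum of the transcripts not named. The TLE1 bars look alike in all 6 libraries, TLE3 differs in G replicate 1, and the leading TCF7L2 transcript changes from library to library within both groups.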

How the data were processed

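Poly(A) RNA of 6 PC9 libraries was measured. Reads were handled by the authors with StringTie 1.3.4d, HISAT2 2.0.4 and cutadapt 1.9, per the submitters' processing notes, which give no order. The notes name build mm10, but the deposited features are human: all 126 transcripts were found by identifier in GENCODE release 29, 118 with the same GRCh38 start, end and strand. Per the file headers, the deposited values are FPKM per library and, from the authors' own comparison, q-values, p-values, fold ratios and log2 fold changes. No source used here gives their test, annotation release or strand setting. Depth is unknown: at most 34.4% of low values were whole multiples of 1 read within 0.02, so reads were not recovered and no count test was run.

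FPKM was taken as log2(FPKM + 1), which understates changes of low genes. A gene or transcript entered the fit where 3 or more libraries reached 1 FPKM (12787 genes, 29990 transcripts). G and A were compared with limma 3.58.1 with an intensity trend (R 4.3.3), with Benjamini-Hochberg adjustment over everything tested and a threshold of 0.05, and the code was tested on simulated data. FOXM1 and leading-transcript shares had exact permutation tests. The text names the 10 genes, FOXM1, CTNNB1, the 2 smallest p of each list, the leading transcripts, the 2 transcripts with the smallest p, and the 3 genes nearest in pattern to the member with the largest change. An item that this rule names is not reported here. Members and lists were chosen with earlier results of these data known. Alternatives changed pseudocount, filter, scaling, variance model, weights, replicate block and libraries used. Nothing in the labels tells separate cultures from repeat libraries, so the p-values cover library-to-library spread, possibly technical, and no more. Summaries were made with pandas 2.3.3 under Python 3.11.15.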

Additional observations from a re-analysis of the deposited data

How the results depend on the processing

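In all 17 gene-level alternatives 0 of the members, 0 of the partners and 0 of the targets were called, and in all transcript-level alternatives 0 of the member transcripts. Over all genes 14 were called as reported, 1 without a filter, 4 without a trend, 6 after quantile normalization, 21 with array weights and 5 to 20 with a library left out. With the replicate number as a block 0 were called. Same-numbered libraries deviated together at correlations of 0.073, 0.015 and 0.04, so the numbers were not taken as pairs; 5 of 6 libraries still correlated best with their own number.

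The median log2 change of the members, -0.09 as reported, was -0.12 with a 5 FPKM filter (which leaves out TCF7L2 and TLE3), 0.01 with equal sums, -0.11 with median-ratio factors and -0.044 with equal sums over all but mitochondrial genes, a setting chosen after seeing the data. It was -0.088 to -0.048 with 1 library left out, the highest being without A replicate 1. FOXM1 ranged from -0.19 to 0.44 with 1 library left out. Signs turned for BCL9L (0.038 with equal sums; -0.11 to 0.0013 with 1 library left out) and TLE3 (-0.026 after quantile normalization; -0.00089 to 0.055 with 1 library left out). Among transcripts they turned with equal sums for BCL9L ENST00000334801 (0.0026) and TLE3 ENST00000317509 (0.046). With 1 library left out the ranges were -0.24 to 0.17 for TLE3 ENST00000317509, -0.88 to 0.28 for TLE3 ENST00000451782, -0.066 to 0.099 for TLE1 ENST00000376463, -0.094 to 0.105 for BCL9L ENST00000526143 and -0.0043 to 0.11 for BCL9 ENST00000234739. The causes were not tested.

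Depth is unknown, so no counting error can be given. The spread between libraries allows changes up to the ends of the intervals given above for each gene. Gene levels from summed transcript FPKM, a setting chosen after seeing the data, change the order of the genes and ratios between them as given above.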

Other observations

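The 3 tested genes whose centred log2 profile over the 6 libraries lay nearest to that of TCF7L2 were NIPA2, AC110994 and SNX21. Their root mean square differences from TCF7L2 were 0.08, 0.09 and 0.12 on the log2 scale, where TCF7L2 itself varied by 0.32 around its own mean. NIPA2, a magnesium transporter, was at 10.2, 7.45 and 6.61 FPKM in G libraries, against 5.34, 6.20 and 9.31 FPKM in A libraries. As in TCF7L2, G replicate 1 was the highest, and A replicate 3 was the highest of its group. These genes were picked by likeness over 6 libraries, so the likeness is a description.

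The coactivators BCL9, BCL9L and PYGO2 together stood, by gene FPKM, at 1.86, 1.68 and 1.80 times the corepressors TLE1 and TLE3 in G libraries, against 2.07, 1.55 and 1.57 times in A libraries. A replicate 1 was the highest of the 6, and the groups overlapped. From summed transcript FPKM the same ratio was 0.972, 0.917 and 0.996 in G libraries, against 1.12, 0.826 and 0.836 in A libraries, so which side is the larger rests on the scale.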
